A study of Mus musculus with 171 samples.

Results

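Insulin-like growth factor 1 (Igf1) and the IGF binding proteins Igfbp1 and Igfbp5 were followed across 88 mouse tissue sources. The members are the 3 genes, of 5755 named on the array, and they are all the probes that the platform annotation assigns to these symbols: 5 probes of 8734. Igf1 (GRCm38.p6, chromosome 10, 87858265 to 87937047) and Igfbp1 (chromosome 11, 7197787 to 7202546) have 1 probe each, numbered 313322 and 404595. Igfbp5 (chromosome 1, 72858065 to 72874865) has 3 probes, numbered 418952, 523303 and 671661, and these are shown separately because they did not always move together. All 5 gave a value on every array.

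IGF1 is a circulating and local growth factor: in postnatal life growth hormone drives its production in liver, and many other tissues make it for their own use. It acts through the type 1 IGF receptor, and a family of binding proteins carries it in blood and tissue fluid and sets how much of it reaches that receptor. IGFBP1 is made mainly by liver and is known to be raised by fasting and stress and lowered by insulin, whereas IGFBP5 binds to extracellular matrix and is well known from the regressing mammary gland.

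The series is a panel of 2-channel spotted arrays, on which RNA of a mouse tissue was hybridised together with a universal mouse reference RNA. Most sources (83) were hybridised on 2 arrays and 5 on 1 array, and r between arrays of the same source ranged from 0.381 to 0.987. Liver was sampled at embryonic day 14, where the labels describe fetal hematopoietic liver, at postnatal day 14, in fed adults, 6 h after sham surgery, and 6 h and 24 h into regeneration. The type of operation, strain, sex and number of animals are not in the labels, the sham has no 24 h counterpart, and nothing in the labels ties the arrays of a pair to separate animals. The p-values below therefore reflect array-to-array scatter alone, and that scatter may be purely technical. Uterus came from virgin females in diestrus and in estrus and from females at pregnancy day 4.5, mammary gland from lactation and from involution, and epididymis was divided into head and tail. Lung was taken at embryonic days 13.5, 16.5 and 18.5, at postnatal days 1, 5, 12 and 24, and in adults. Heart came from E14.5 wild-type embryos, as adult atrium and ventricle, and as a hyperdynamic transgenic heart (Mek in its source name) with its control. Kidney was taken at embryonic day 18.5, at postnatal day 2, in adults and after folic acid toxic injury in FVB/N mice, the strain being named for the injured kidney only. Synovium was normal or from acute or chronic arthritis. Lymph node was unstimulated or stimulated with complete Freund's adjuvant, and ileum came from bowel resection or its sham. Small intestine was taken at embryonic day 16.5 and at postnatal days 1 and 14. Tumours came from duodenum, jejunum and colon, with no genotype in the labels, and were set against duodenum, proximal jejunum (1 of its sources is marked WT), cecum and colon. Bladder was from newborn males and from adults, hair from awn follicles of the back in anagen or catagen, and skin from embryonic day 16 and postnatal days 2 to 3. Whole brain was from embryonic day 18.5 (marked wt in its array titles) and from postnatal day 2 (not so marked).

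A value is the deposited log ratio of tissue to reference, centred by the authors on each probe's median over the arrays and here also on each array's median. It says how far a source lies from the usual level of that probe. Amounts of RNA for different probes, and therefore for different genes, were not set against each other. The direction and the base of the ratio are not stated; they are read as tissue over reference and log2, and a turned sign would exchange higher and lower throughout. Of 14535 pairs of arrays, 356 correlated below -0.3. Differences are given as log2 difference ± standard error from limma, with p adjusted by the Benjamini-Hochberg method over all tested probes and called at 0.05. The standard deviation (SD) between the 2 arrays of a source, pooled over 83 sources, was 0.193 for Igf1, 0.458 for Igfbp1, and 0.384, 0.215 and 0.231 for the Igfbp5 probes 418952, 523303 and 671661. In whole tissue, fewer cells of a type and less RNA per cell cannot be told apart.

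The 250 bases before the annotated start of Igfbp1 and Igf1, the members that were both high in liver, are printed from RefSeq (GRCm38.p6), 5′ to 3′ on the strand of the gene. Capitals mark matches to the motifs searched, on both strands. The first is CAAAACA, the core of the insulin response element known from Igfbp1. Another is GTAAACA, a core bound by FOX factors. HNF1 sites, used by many liver genes, were searched by their core GTTAAT. The TATA box was searched as TATAAA.
Igfbp1, chr11:7197537-7197786, + strand: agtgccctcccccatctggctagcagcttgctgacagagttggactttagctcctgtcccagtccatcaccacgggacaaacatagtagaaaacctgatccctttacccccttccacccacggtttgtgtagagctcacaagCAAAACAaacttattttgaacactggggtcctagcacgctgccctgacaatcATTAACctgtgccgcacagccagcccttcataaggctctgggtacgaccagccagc
Igf1, chr10:87860861-87861110, + strand: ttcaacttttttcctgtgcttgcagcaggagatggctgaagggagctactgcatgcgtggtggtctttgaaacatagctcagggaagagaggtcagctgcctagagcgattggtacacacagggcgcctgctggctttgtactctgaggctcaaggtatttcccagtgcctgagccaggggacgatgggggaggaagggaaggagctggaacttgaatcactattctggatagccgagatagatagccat

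The Igfbp1 stretch held CAAAACA 108 to 102 bases before the start and, on the opposite strand, GTTAAT 56 to 51 bases before it, so the latter reads ATTAAC in the printed line. The Igf1 stretch held no match to these 4 motifs, and neither did that of Igfbp5 (chr1:72874866-72875115, - strand, not printed). The Igf1 start in this table lies inside the gene's annotated span, so other Igf1 starts were not searched. Such short motifs are common: CAAAACA was found in 5.56% of 32851 promoters of that length, GTTAAT in 6.43%, GTAAACA in 3.17% and TATAAA in 12.4%. A match describes letters only and says nothing of binding.

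Across the 88 sources Igf1 was highest in liver. The 5 postnatal liver sources took the first 5 places, with means between 3.87 and 4.43, and embryonic day 14 liver, at -1.04, stood at place 68. Brown adipose tissue followed with arrays at 2.21 and 2.64 and newborn (P1) small intestine with 2.65 and 2.13, and these overlapped each other but not liver. The uterus at pregnancy day 4.5 came next with 1.94 and 1.96. Normal and neoplastic small intestine filled many of the places behind it. The lowest means belonged to nucleus accumbens (-1.90), folic acid treated kidney (-1.84) and nasal respiratory mucosa (-1.78). With quantile normalization, brown adipose tissue and pregnant uterus (both 2.65) came before the 5 livers (2.02 to 2.36). The order is coarse: of 87 pairs of neighbours in it, 74 overlapped in their arrays and 13 did not.

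Igfbp1 was high in liver and in perinatal lung. All 6 liver sources and 2 perinatal lung sources lay above 2, while the median source was at -0.09. Juvenile (P14) liver led with 7.40 and 7.36, followed by liver 6 h into regeneration with 6.70 and 6.94 and by liver at 24 h with 5.36 and 5.47. These 3 did not overlap each other. Newborn (P1) lung, at 4.89 and 5.09, overlapped adult fed liver, at 4.79 and 4.92. Below these 8 sources the next values belonged to the tumour Jej3 (1 array, 1.70) and newborn small intestine (1.76 and 1.46). Unstimulated lymph node read 2.45 on one array and 0.63 on the other. Adult kidney read 1.28 and 1.50. With quantile normalization the newborn (5.55) and embryonic day 18.5 (4.30) lungs came first, ahead of juvenile liver (4.20).

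The Igfbp5 probes did not give the same order. Involuting mammary gland was the highest source for probe 671661 (3.70 and 3.75) and for probe 418952 (1.66 and 1.74), and in both it did not overlap the second source. For probe 523303 cerebellum was highest (1.25 and 1.34) and involuting mammary gland read -0.56 and -0.48. Over the 88 source means, Pearson's r was 0.75 between probes 418952 and 671661, but 0.255 between 418952 and 523303 and 0.303 between 523303 and 671661. After mammary gland, probe 671661 was highest in hair follicle in catagen (1.97 and 2.09), embryonic day 16 skin (1.91 and 1.69), chronic arthritic synovium (1.82 and 1.69) and E14.5 heart (embryonic; 1.55 and 1.88). Adult fed liver, where Igf1 and Igfbp1 were high, was among its low sources (-1.41 and -1.63). Which Igfbp5 transcript each probe detects is not given in the sources used here.

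**Figure D1:**
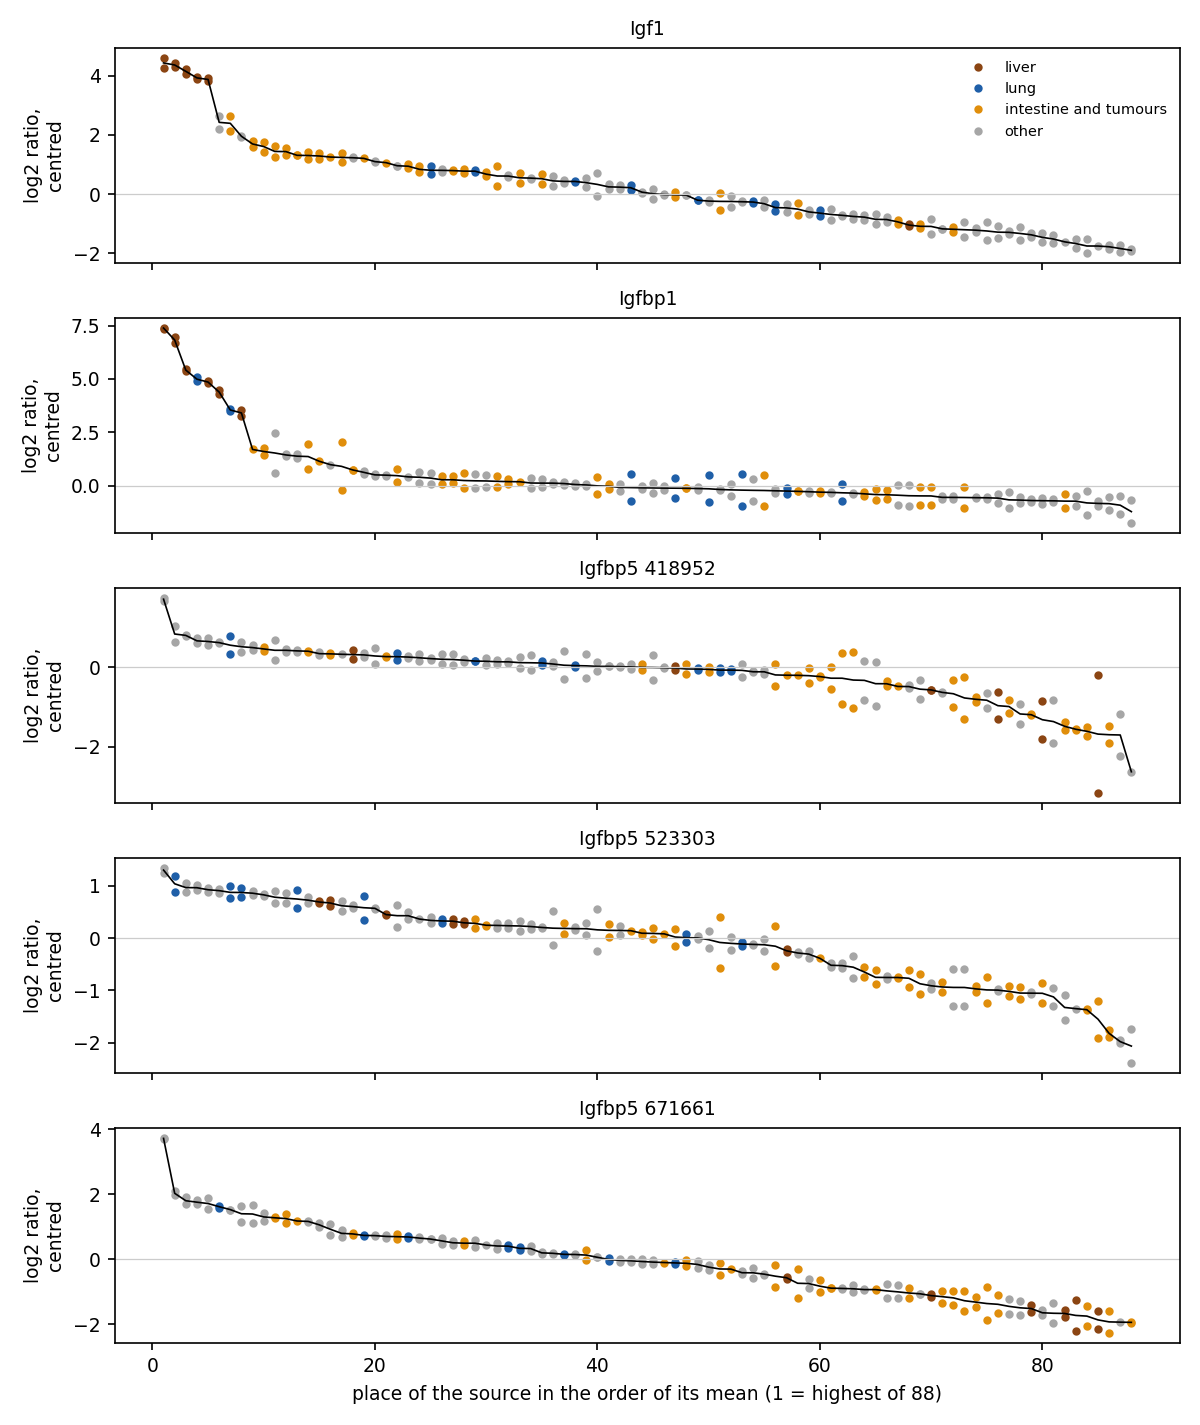
Log2 ratio of each of the 5 probes in the 88 sources, ordered by the source mean (line) from highest to lowest, with 1 point per array and colours for liver, lung, intestine with its tumours, and all other sources. Liver holds the first 5 places for Igf1 and 6 of the first 8 for Igfbp1, with lung in the other 2, and only the probes 418952 and 671661 of Igfbp5 set involuting mammary gland apart at the top.

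Igf1 was low in fetal liver and high in every postnatal one. Igf1 read -1.07 and -1.02 at embryonic day 14, 4.06 and 4.23 at postnatal day 14, and 3.82 and 3.92 in fed adults. Both fetal arrays lay far below all postnatal ones, and the juvenile and adult livers did not overlap. Fetal liver was lower than adult (-4.91 ± 0.20, adjusted p = 4e-39), and juvenile liver was higher than fetal by 5.19 ± 0.20 (adjusted p = 2.7e-40). Juvenile minus adult was 0.27 ± 0.20 and was not called (adjusted p = 0.29 by limma). The fetal against adult call for Igf1 was made in all 11 alternatives, although the size was -2.73 at its smallest.

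Igfbp1 was already well above its usual level in fetal liver and peaked in the juvenile. It read 3.29 and 3.53 at embryonic day 14, 7.40 and 7.36 at postnatal day 14, and 4.79 and 4.92 in fed adults, with no overlap. Juvenile liver exceeded fetal liver by 3.97 ± 0.44 (adjusted p = 1.3e-12) and adult liver by 2.53 ± 0.44 (adjusted p = 6.2e-06). Fetal liver was lower than adult (-1.44 ± 0.44, adjusted p = 0.0038). That last direction depends on the scaling: with quantile normalization it was 0.43 (adjusted p = 0.51), and the juvenile to fetal difference shrank to 1.12 (adjusted p = 0.077). On the liver arrays Igfbp1 ranked between 11 and 57 among the probes of its array by distance above the usual level. This is not a rank by amount of RNA.

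The Igfbp5 probes gave smaller and mixed differences in the same livers. Probe 671661 read -1.16 and -1.08 at embryonic day 14, -0.60 and -0.54 at postnatal day 14 and -1.41 and -1.63 in adults, so the juvenile arrays were the highest. It was higher in juvenile than in adult liver (0.95 ± 0.23, adjusted p = 0.00099) and higher than in fetal liver by 0.55 ± 0.23 (adjusted p = 0.034), which with the values as deposited was -0.10. Probe 523303 was higher in juvenile than in fetal liver (0.93 ± 0.22, adjusted p = 0.00016, but 0.28 as deposited) and lower in fetal than in adult liver (-0.53 ± 0.22, adjusted p = 0.026), a call lost in 7 of 11 alternatives. Probe 418952 went the other way between fetal and adult liver (0.94 ± 0.37, adjusted p = 0.024), which was lost in 4 of 11, where its adult arrays read -0.63 and -1.30. These stages differed throughout the array: 61.9% of 8638 probes were called between fetal and adult liver and 59.1% between juvenile and fetal, where 4 of the 5 member probes were called in each, and 29.9% between juvenile and adult, where 2 of 5 were.

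Of the 54 genes of the growth hormone, IGF and insulin list, 22 have a probe. Between fetal and adult liver 3 of the 22 rose and 7 fell, 45.5% beside 61.9% of all probes, with a median difference of -0.11 beside -0.21 over all probes. Igf2, the fetal growth factor, was higher in fetal liver by 5.15 ± 0.45 (4.68 and 4.81 against -0.17 and -0.62 in adults, adjusted p = 1.4e-17), opposite to Igf1. Grb10, an adaptor that restrains insulin and IGF receptor signalling, was higher by 4.82 ± 0.38. Igfals, the acid labile subunit that holds IGF1 in its large circulating complex, was lower (-3.18 ± 0.31), as was Cish, a growth hormone induced inhibitor of cytokine signalling (-2.11 ± 0.25). At postnatal day 14 Igf2 still stood at 6.18 and 6.12, so both growth factors were high together, and Igf2 exceeded adult liver by 6.55 ± 0.45. Juvenile against fetal liver gave 13 genes that rose and 3 that fell (72.7% beside 59.1%; median 0.64 beside 0.22), among them Igfals (3.96 ± 0.31) and Socs2, a growth hormone induced feedback inhibitor (2.55 ± 0.24). Juvenile against adult liver gave 8 that rose (36.4% beside 29.9%; median of the list 0.21 beside -0.09), with Socs2 higher by 2.84 ± 0.24 and Igfbp3, the main carrier of circulating IGF1, by 1.17 ± 0.22.

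Liver markers moved with the stage. Of the 17 hepatocyte genes listed, 4 have a probe (Apoc3, Serpinc1, Fgb and Trf), and all 4 were lower in fetal than in adult liver (median -2.01). Their mean level was 2.04 and 2.09 on the fetal arrays against 4.33 and 4.47 on the adult ones. Apoc3 read -0.11 on both fetal arrays, while Fgb read 4.67 and 4.86. Among 6 erythroid genes 4 were higher and 1 lower in fetal liver. The part of this cell makeup in the Igf1 difference was not tested.

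In adult liver after surgery, Igfbp1 differed and Igf1 was not called. Igfbp1 read 4.79 and 4.92 in fed adults, 4.47 and 4.31 after 6 h of sham surgery, 6.70 and 6.94 after 6 h of regeneration and 5.36 and 5.47 after 24 h. All 4 regeneration arrays lay above all 4 others. At 6 h regeneration exceeded sham by 2.44 ± 0.44 (adjusted p = 6.2e-05), in a comparison where 5.45% of 8638 probes were called and 2 of the 5 member probes were. Arrays with AF or AC in their title code are called the AF and AC lots here, although the labels do not call them so. Within the AF lot, with 1 of the 2 regeneration arrays and both sham arrays, the difference was 2.32. It was 0.87 with quantile normalization (adjusted p = 1), and with only the 4 arrays in the fit the adjusted p was 0.057. From 6 h to 24 h Igfbp1 went down (-1.41 ± 0.44, adjusted p = 0.044; 5.2% of probes called, 1 of 5 members), a call that was lost in 9 of 13 alternatives. At 24 h it differed from fed adult liver by 0.56 ± 0.44 (adjusted p = 0.52).

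Sham surgery itself gave no call for Igf1 or Igfbp1. Sham minus fed adult was -0.47 ± 0.44 for Igfbp1 (adjusted p = 0.59) and 0.05 ± 0.20 for Igf1 (adjusted p = 0.91). The sham arrays are of the AF lot and the adult arrays of the AC lot, so among these arrays lot and surgery coincide. With the lot as a block, which assumes the same lot effect in every source, no member call changed in this comparison. The only member called was Igfbp5 probe 418952 (1.28 ± 0.37, adjusted p = 0.014; 11.5% of probes called), with 0.43 and 0.20 in sham and -0.63 and -1.30 in fed adults, and that call was lost in 5 of 11 alternatives.

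Igf1 stayed in a narrow band after surgery: 3.95 and 3.90 in sham, 4.43 and 4.28 at 6 h of regeneration and 4.24 and 4.61 at 24 h. The regeneration arrays were the higher ones and did not overlap sham or fed adult liver, but neither 6 h against sham (0.44 ± 0.20, adjusted p = 0.21) nor 24 h against fed adults (0.56 ± 0.20, adjusted p = 0.059) was called. The latter was called in 3 of 12 alternatives: with the array lot as a block (adjusted p = 0.049), with probes that had a value on every array (0.042) and without the first 24 h array (0.74, adjusted p = 0.037). In this comparison limma called 8.14% of probes and none of the 5 member probes, 1 of which had an unadjusted p below 0.05.

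Igfbp5 in regenerating liver rests on 1 array. Probe 418952 read -3.15 and -0.20 at 6 h of regeneration and 0.43 and 0.20 in sham. The call for a lower level (-1.99 ± 0.37, adjusted p = 0.00011) vanished without the first regeneration array (-0.52, adjusted p = 0.7). The other Igfbp5 probes differed by 0.22 ± 0.22 and -0.06 ± 0.23 in that comparison.

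**Figure D2:**
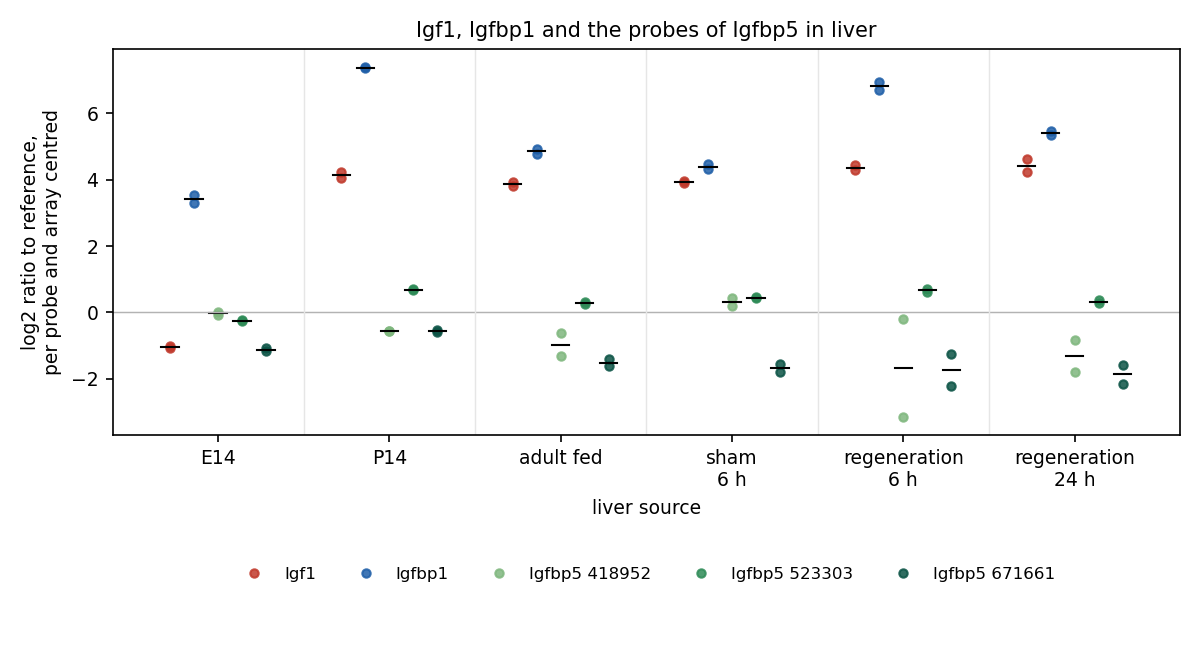
Log2 ratio of the 5 probes in the 6 liver sources, with 1 point per array and a bar at the mean of the 2. Igf1 is below 0 only at embryonic day 14, Igfbp1 is highest at postnatal day 14 (7.40 and 7.36) and at 6 h of regeneration (6.70 and 6.94), and the 2 arrays of probe 418952 at 6 h lie far apart.

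Among the listed pathway genes, 6 h of regeneration against sham gave 1 that rose and 2 that fell of 22 (median -0.12 beside 0.02 for all probes). Foxo1, an insulin-restrained transcription factor, read 0.93 and 0.65 in regeneration and -0.05 and 0.07 in sham (0.78 ± 0.19, adjusted p = 0.0061). Igfbp3 read 0.27 and 0.65 against 1.25 and 1.14 and was lower (-0.73 ± 0.22, adjusted p = 0.032). Grb2, an adaptor of receptor tyrosine kinases, was the other that fell (-0.66 ± 0.20, adjusted p = 0.036). Sham against fed adults raised Igfbp3 (1.16 ± 0.22), Socs2 (0.82 ± 0.24) and Grb2 (0.67 ± 0.20) and lowered Igfals (-1.13 ± 0.31), of which the 2 adult arrays read 1.61 and 2.88. From 6 h to 24 h of regeneration, Igf2r, which clears IGF2, rose (1.15 ± 0.30), Igfals rose (1.02 ± 0.31), and Cish (-1.04 ± 0.25) and Igfbp3 (-0.89 ± 0.22) fell. At 24 h against fed adults Cish was lower (-1.02 ± 0.25) and Foxo1 higher (0.60 ± 0.19). At 6 h against sham the 4 hepatocyte genes had a median difference of 0.33, and limma called 0 of them, with 0 at an unadjusted p below 0.05. Of 3 acute phase genes, Orm1 rose (1.65 ± 0.25, adjusted p = 2e-06).

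In the uterus Igf1 was the member that moved with reproductive state. It read 0.57 and 0.64 in diestrus, 1.10 and 1.09 in estrus and 1.94 and 1.96 at pregnancy day 4.5, around the time of implantation. The 3 states did not overlap. Pregnant uterus exceeded diestrus by 1.34 ± 0.20 (adjusted p = 4.5e-07; 10.6% of 8638 probes called, 1 of 5 members) and estrus by 0.86 ± 0.20 (adjusted p = 0.0034; 2.93% called, 1 of 5). Estrus minus diestrus was 0.49 ± 0.20 (adjusted p = 0.087), so that step was not called for Igf1. The diestrus comparison kept its call in all 11 alternatives, and the estrus one reached an adjusted p of 0.055 without the second pregnant array.

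The binding proteins did not follow Igf1 in the uterus. Igfbp1 differed by -0.15 ± 0.44 and -0.14 ± 0.44 between pregnancy and the other states. Of the Igfbp5 probes, 523303 rose from diestrus (-0.79 and -0.72) to estrus (-0.01 and -0.25) by 0.62 ± 0.22 (adjusted p = 0.039; 13.4% of probes called, 1 of 5 members), and this call was lost when any 1 of the 4 arrays was left out. Probe 671661 ranged from 0.16 to 0.65 over the 6 uterine arrays.

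Few of the listed pathway genes joined Igf1 there. In pregnancy against diestrus 1 of 22 rose, Foxo1 (0.59 ± 0.19, adjusted p = 0.037). Estrus against diestrus raised Foxo1 (0.59 ± 0.19) and lowered Pdk2 (-0.66 ± 0.23). Pregnancy against estrus raised Igfbp3 (0.74 ± 0.22) and lowered Cish (-0.88 ± 0.25). The 9 stromal genes with a probe had a mean of 1.61 and 1.73 in pregnancy, 1.00 and 1.08 in diestrus and 0.94 and 0.91 in estrus. Against diestrus 2 of them rose, Col1a1 (1.18 ± 0.38) and Col6a1 (0.70 ± 0.24). Of 5 macrophage genes 1 rose, Lgmn (1.43 ± 0.20), of 5 epithelial genes 2, Krt19 (1.11 ± 0.39) and Krt7 (1.02 ± 0.28), and of 2 smooth muscle genes 1, Cnn1 (1.15 ± 0.35). The adipocyte gene with a probe, Pparg, fell (-0.87 ± 0.28), and limma called 0 of 3 skeletal muscle genes, 2 of which had an unadjusted p below 0.05. The part of these shifts in the Igf1 result was not tested.

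In the mammary gland Igfbp5 separated lactation from involution while Igf1 and Igfbp1 were not called. Probe 671661 read -0.93 and -0.94 in lactation and 3.70 and 3.75 in involution. Probe 523303 read -2.0 and -1.95 against -0.56 and -0.48, and probe 418952 read 0.81 and 0.78 against 1.66 and 1.74. For each probe both lactating arrays lay below both involuting ones, by very different distances. Lactation was lower by -4.66 ± 0.23 (adjusted p = 3.6e-31), -1.46 ± 0.22 (adjusted p = 3.1e-08) and -0.91 ± 0.37 (adjusted p = 0.034) for probes 671661, 523303 and 418952. The 3 calls stand against a background of 55.3% of 8638 probes. The first 2 were made in all 11 alternatives, although probe 523303 came to -0.62 at its smallest, and the third was lost when any 1 of the 4 arrays was left out.

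Igf1 differed by -0.02 ± 0.20 and Igfbp1 by 0.41 ± 0.44 between the mammary states. Of the 22 pathway genes 8 rose and 7 fell in lactation against involution (median 0.13 beside 0.09). Those with the largest changes fell: Pck1, an insulin-repressed enzyme of glucose production (-1.77 ± 0.23), Akt1, a kinase downstream of the receptor (-1.42 ± 0.22), Cish (-1.32 ± 0.25) and Socs2 (-1.13 ± 0.24). Markers of other cell types moved in the same direction as Igfbp5. Of the 9 stromal genes 7 were lower in lactation (mean level -0.96 and -0.99 against 0.42 and 0.51), for example Fn1 (-3.17 ± 0.30), and of 5 macrophage genes 3 were lower (mean -0.38 and -0.49 against 1.16 and 1.18), for example Cd14 (-4.16 ± 0.42). Of 5 epithelial genes 1 was lower, Krt19 (-2.17 ± 0.39). No gene of the milk protein list has a probe. The part of a changed cell makeup in the Igfbp5 difference was not tested.

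In the epididymis Igf1 was higher in the tail than in the head. It read -0.95 and -0.77 in the head and 0.31 and 0.16 in the tail, with no overlap, a difference of -1.09 ± 0.20 (adjusted p = 2e-05; 6.71% of 8638 probes called, 1 of 5 members). Igfbp5 probe 671661 read -1.02 and -0.80 in the head and -0.32 and -0.17 in the tail (-0.67 ± 0.23, adjusted p = 0.063), which was called in 5 of 11 alternatives, among them the array series (adjusted p = 0.022) and the array lot (adjusted p = 0.042) as a block. Igfbp1 and the other Igfbp5 probes differed by -0.61 ± 0.44, 0.10 ± 0.37 and 0.06 ± 0.22. Akt2, a kinase of insulin signalling, was the only pathway gene called of 22 and was lower in the head (-1.34 ± 0.24, adjusted p = 3.2e-05). Beside this, 3 of 9 stromal genes were lower in the head, Col6a1 (-1.50 ± 0.24), Fn1 (-1.46 ± 0.30) and Col1a1 (-1.29 ± 0.38), and the mean of the list was -0.65 and -0.59 in the head against 0.00 and -0.02 in the tail. Pparg, the adipocyte gene with a probe, was also lower in the head (-0.89 ± 0.28, adjusted p = 0.033). Whether stromal or fat content plays a part in the Igf1 difference was not tested.

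**Figure D3:**
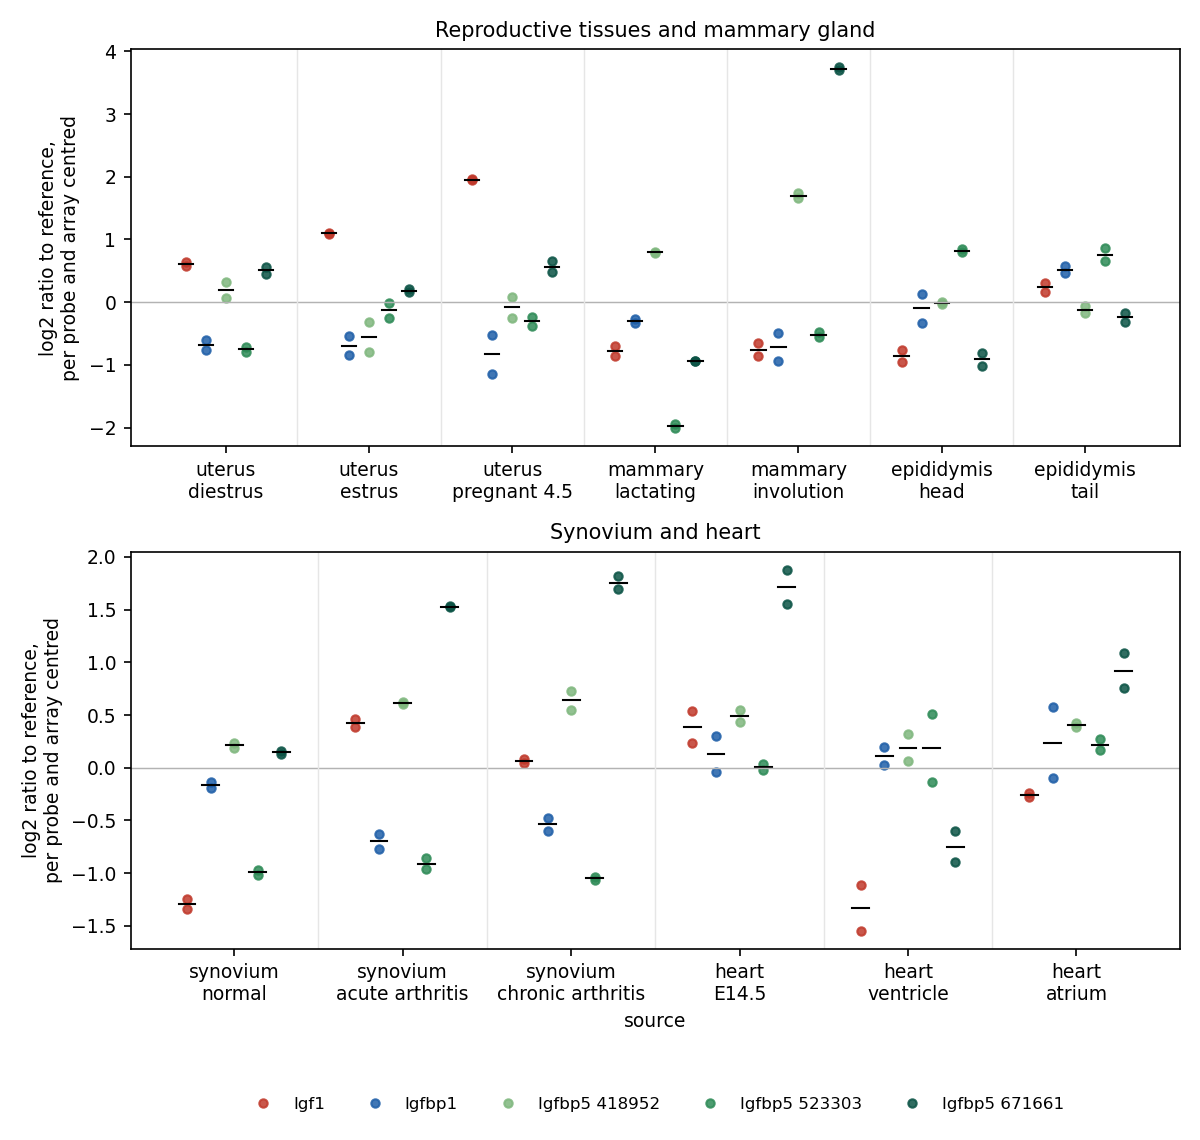
Log2 ratio of the 5 probes in uterus, mammary gland and epididymis (upper panel) and in synovium and heart (lower panel), with 1 point per array and a bar at the mean. Igf1 steps up from diestrus to estrus to pregnancy, the Igfbp5 probes are all higher in involution than in lactation, and Igf1 and Igfbp5 probe 671661 are both higher in arthritic than in normal synovium and in embryonic than in ventricular heart.

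The clearest Igfbp1 pattern outside liver was in lung around birth. Igfbp1 read -0.38 and -0.10 at embryonic day 13.5, 0.36 and -0.57 at 16.5, 3.49 and 3.62 at 18.5, 4.89 and 5.09 at postnatal day 1, 0.08 and -0.73 at day 5 and -0.72 and 0.56 at day 12. The 4 perinatal arrays stood alone, and on each of them Igfbp1 was among the 10 probes furthest above their usual level. It rose from embryonic day 16.5 to 18.5 by 3.66 ± 0.44 (adjusted p = 2.1e-09; 2.28% of 8638 probes called, 1 of 5 members). The further step to day 1 was 1.44 ± 0.44 and was not called (adjusted p = 0.37), in a comparison where limma called 0.139% of probes and none of the 5 members, 1 of which had an unadjusted p below 0.05. Day 12 was lower than day 1 (-5.07 ± 0.44, adjusted p = 3.6e-15; 0.949% called, 1 of 5), and so was day 5 (-5.31 ± 0.44, adjusted p = 2.8e-16; 1.22% called, 2 of 5), a comparison added after its values were seen. With only the 4 compared arrays in the fit, the adjusted p for day 12 was 0.15, and for day 5 it was 0.016.

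Several genes of other liver plasma proteins followed the same course in these lungs. F2 was picked for its likeness to Igfbp1 over sources that include these lungs, and Fgb ranks high there too, so their shared course was partly fixed by that choice. Fgb, a fibrinogen chain, read 0.22 and -0.42 at embryonic day 16.5, 3.81 and 3.91 at 18.5, 4.03 and 4.36 at day 1 and -0.05 and -0.39 at day 5. Prothrombin (F2) stood at 3.31 and 3.40, and then 3.95 and 4.07, on the perinatal arrays, and Trf, transferrin, at 2.35 and 2.53 and then 2.23 and 2.63. Fgb and Trf are on the hepatocyte list, and both rose at embryonic day 18.5 (3.96 ± 0.40 and 1.86 ± 0.39). The other hepatocyte genes did not: Apoc3 read 0.01 and -0.16 at embryonic day 18.5 and 0.19 and 0.12 at day 1, and Serpinc1 read 0.13 and 0.10 and then -0.04 and 0.02. The series has no liver of embryonic day 18.5 or postnatal day 1. Liver of embryonic day 14 read 4.67 and 4.86 for Fgb and 3.40 and 3.47 for Trf. It read -0.11 on both arrays for Apoc3 and 0.20 and 0.12 for Serpinc1. Over the 4 hepatocyte genes the mean level was 1.57 and 1.59 at embryonic day 18.5 and 1.60 and 1.78 at day 1, places 8 and 7 of 88 after the 6 livers. The part of liver tissue or liver RNA in the lung Igfbp1 values was not tested.

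Igf1 and Igfbp5 did not share that course. Igf1 read -0.20 and -0.21 at embryonic day 18.5 and -0.24 and -0.30 at day 1, below its values at embryonic days 13.5 and 16.5, and was higher at day 5 (0.67 and 0.94; 1.07 ± 0.20, adjusted p = 9.7e-05). Igfbp5 probe 671661 was highest at embryonic day 13.5 (1.65 and 1.58) and lower at 16.5 (0.72 and 0.74; -0.88 ± 0.23, adjusted p = 0.028; 1.11% of probes called, 1 of 5 members), a call lost in 7 of 12 alternatives. Probe 418952 ranged from -0.12 to 0.77 over the 16 lung arrays. Between day 12 and adult lung limma called 0.961% of probes and none of the 5 members, 1 of which had an unadjusted p below 0.05.

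**Figure D4:**
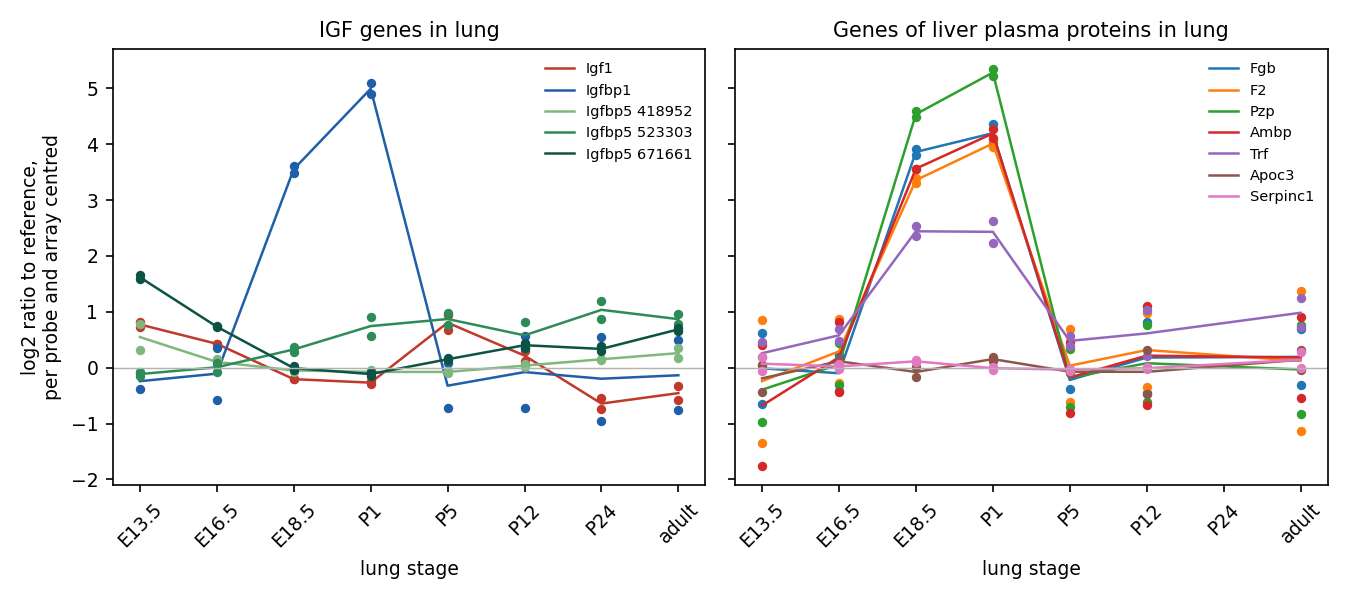
Log2 ratio by lung stage for the 5 probes (left) and for 7 genes of liver plasma proteins (right; day 24 not plotted there), with 1 point per array and lines through the means. Igfbp1, Fgb, F2, Pzp, Ambp and Trf have their highest values at embryonic day 18.5 and postnatal day 1, whereas Apoc3 and Serpinc1 lie near 0 at both. F2, Pzp and Ambp were picked for their likeness to Igfbp1 over sources that include these lungs.

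The fetal minus adult difference of Igf1 in liver ran against that in heart, kidney and lung. Embryonic (E14.5) heart read 0.23 and 0.54 for Igf1 against -1.11 and -1.54 in adult ventricle (1.71 ± 0.20, adjusted p = 8.5e-12; 18.2% of 8638 probes called, 2 of 5 members). Embryonic day 18.5 kidney read -0.06 and -0.44 against -1.45 and -0.95 in adult kidney (0.95 ± 0.20, adjusted p = 6.1e-05; 29.4% called, 1 of 5), a call lost within the AF lot (0.52, adjusted p = 0.29) and with only the 4 arrays compared (adjusted p = 0.059). Lung at embryonic day 13.5, the only fetal lung stage set against adult lung, exceeded it by 1.23. In each of these organs the fetal arrays lay above the adult ones, and in liver below. The low level itself was not particular to liver, since embryonic day 18.5 brain read -1.40 and -1.64. A higher Igf1 level after birth was also seen in brain (postnatal day 2 minus embryonic day 18.5, 0.92 ± 0.20). The same held in small intestine (postnatal day 1 minus embryonic day 16.5, 1.08 ± 0.20). Both of these calls were lost with the array series as a block. Stromal genes were higher in the fetal organ in kidney, 6 of 9 (median 1.45), and in heart, 5 of 9 (median 0.84), and their part in the Igf1 differences was not tested. The difference between liver and each organ was tested in the same limma model and was -6.63 ± 0.28 against heart (adjusted p = 8e-37), -5.87 ± 0.28 against kidney (adjusted p = 8.6e-33) and -6.14 ± 0.28 against lung (adjusted p = 1.4e-34). Such differences were widespread, with 46.5%, 48.6% and 45.7% of probes called, and these contrasts were added after their values were seen. For heart 3 of the 5 member probes were called, and for kidney and lung 1 of 5.

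In heart the Igfbp5 probe 671661 and Igf1 took the same side in 2 comparisons. Probe 671661 read 1.55 and 1.88 in embryonic heart, -0.61 and -0.89 in ventricle and 0.76 and 1.09 in atrium. Embryonic heart exceeded ventricle by 2.46 ± 0.23 (adjusted p = 2.3e-15) and atrium exceeded ventricle by 1.67 ± 0.23 (adjusted p = 8.5e-08; 8.25% of probes called, 2 of 5 members). For Igf1, atrium exceeded ventricle by 1.07 ± 0.20 (adjusted p = 6.1e-05). The embryonic and the atrial comparison share the ventricle arrays, and with only the 4 arrays compared in the fit the atrial calls were lost (adjusted p = 0.82 for Igf1 and 0.38 for probe 671661). In atrium 2 of 9 stromal genes were higher (median 0.68), and their part was not tested. In the transgenic hyperdynamic heart against its control limma called 12.6% of probes and none of the 5 members, 1 of which had an unadjusted p below 0.05.

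Igf1 and Igfbp5 probe 671661 were higher in inflamed joints. Igf1 read -1.34 and -1.25 in normal synovium, 0.39 and 0.47 in acute and 0.09 and 0.05 in chronic arthritis, with no overlap. Probe 671661 read 0.16 and 0.13, then 1.53 and 1.53, and 1.82 and 1.69. Against normal synovium, acute arthritis was higher by 1.72 ± 0.20 for Igf1 (adjusted p = 2.2e-11) and by 1.38 ± 0.23 for probe 671661 (adjusted p = 2.7e-06; 11.7% of probes called, 2 of 5 members). Chronic arthritis was higher by 1.36 ± 0.20 (adjusted p = 1.4e-07) and by 1.61 ± 0.23 (adjusted p = 1.2e-07; 5.15% called, 2 of 5). These calls were made in all 11 alternatives of each. The other Igfbp5 probes were not called: in acute and chronic arthritis probe 523303 differed by 0.08 and -0.06 (adjusted p = 0.84 and 0.94) and probe 418952 by 0.40 and 0.43 (adjusted p = 0.57 and 0.67). Between acute and chronic arthritis limma called 0.938% of probes and none of the 5 members, 0 of which had an unadjusted p below 0.05. Stromal genes rose with them, 8 of 9 in each form of arthritis (mean level 2.53 and 2.49 in acute, 2.59 and 2.49 in chronic and 0.36 and 0.31 in normal synovium), as did 5 of 5 macrophage genes in the acute and 2 of 5 in the chronic form. Their part in the Igf1 and Igfbp5 results was not tested.

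In the developing gut Igf1 was above its usual level at each stage. Small intestine read 1.31 and 1.31 at embryonic day 16.5, 2.65 and 2.13 at postnatal day 1 and 1.77 and 1.44 at day 14. The newborn arrays were the highest (1.08 ± 0.20 over embryonic day 16.5, adjusted p = 9.1e-06; 27.3% of probes called, 3 of 5 members). Igfbp1 rose in the same step (1.86 ± 0.44, adjusted p = 0.00076) and so did Igfbp5 probe 523303 (1.39 ± 0.22, adjusted p = 3.5e-07). With the array series as a block all 3 calls were lost (0.54, 1.06 and 0.98, adjusted p = 0.34, 0.39 and 0.087). Beside Igfbp1 (1.76 and 1.46), Fgb stood at 1.53 and 1.03 and F2 at 2.03 and 0.64 in newborn intestine, and Apoc3, which intestine also makes, at 5.09 and 5.32. The remaining hepatocyte genes, Serpinc1 (-0.41 and -0.42) and Trf (-0.17 and -0.26), lay below 0 there. F2 was picked for its likeness to Igfbp1 over sources that include this one. By day 14 Igf1 (-0.78 ± 0.20, adjusted p = 0.01) and probe 523303 (-1.01 ± 0.22, adjusted p = 0.0015) were lower again (1.97% called, 2 of 5), calls that were lost in 5 and 3 of 11 alternatives. Ileum after bowel resection against sham gave 0.15% of probes called by limma and none of the 5 members, 0 of which had an unadjusted p below 0.05.

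Colon tumours had higher Igf1 and Igfbp5 probe 671661 than normal large bowel. The 4 tumours had source means of 1.44, 0.94, 0.78 and -0.02 for Igf1, and cecum, proximal and distal colon had -0.94, -1.19 and -1.09. All tumours lay above all normal segments. With sources as the units and the form of the array title (code or #) as a covariate, limma gave 1.45 ± 0.25 for Igf1 (adjusted p = 0.014). Probe 671661 was higher by 1.99 ± 0.26 (adjusted p = 0.0058), where 8.39% of 8571 probes and 2 of 5 members were called. All normal segments have the code form, so the covariate takes up the # tumours Col43 and Col72. These sizes therefore rest on Col1 and Col2 against the normal segments, and code-form arrays alone gave the same 1.45 for Igf1. Without the covariate the Igf1 difference was 1.85 (adjusted p = 0.0075 by limma). Leaving out single sources moved the Igf1 difference between 1.05 and 1.85, with an adjusted p of at most 0.06. The other Igfbp5 probes were not called (0.73, adjusted p = 0.089 for 418952 and 0.63, adjusted p = 0.12 for 523303). Beside this, both smooth muscle genes with a probe were lower in the colon tumours (median -1.93), as were Pparg (-1.76 ± 0.39, adjusted p = 0.031) and 3 of 6 erythroid genes, and of 9 stromal genes 1 was higher and 2 lower. Their part in the Igf1 and Igfbp5 differences was not tested. In small intestine tumours limma called 1.05% of 8484 probes and 1 of 5 members, probe 418952 (0.97 ± 0.21, adjusted p = 0.037). That call was lost in 12 of 20 alternatives. Igf1 differed there by 0.03 ± 0.39 (adjusted p = 0.98 by limma) and ran from -0.88 to 1.46 over the alternatives. The 2 tumour differences were then compared in 1 fit with a shared title form covariate, so the result is not the gap between the sizes above. The tumour difference of colon minus small intestine for Igf1 was 1.84 ± 0.57 and was not called (adjusted p = 0.13; limma called 1.02% of 8494 probes and none of the 5 members, and Igf1 alone had an unadjusted p below 0.05, 0.0039). Colon and duodenal tumours share the numbers 43 and 72 in their names, and with that number as a random block the adjusted p was again 0.13.

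The remaining comparisons added the following. After folic acid, which injures kidney tubules, adult kidney had less Igfbp1 (-0.32 and -0.13 against 1.28 and 1.50; -1.62 ± 0.44, adjusted p = 0.0089) and less of Igfbp5 probe 671661 (-1.22 ± 0.23, adjusted p = 4.4e-05), and 3 of 5 members were called beside 7.7% of probes. Igf1, the third, was lower too (-0.63 ± 0.20, adjusted p = 0.025 by limma). The Igf1 call was lost in 7 of 13 alternatives, that of Igfbp1 in 5 and that of probe 671661 in 2. The strain, FVB/N, is named for the injured kidney only. Newborn (P2) kidney had more Igf1 than adult kidney (1.19 ± 0.20, adjusted p = 1.3e-06; 13.5% called, 2 of 5), and newborn bladder more than adult bladder (1.04 ± 0.20, adjusted p = 9e-05; 4.71% called, 1 of 5). Stromal genes were higher there too, 5 of 9 in newborn kidney (median 0.86) and 4 of 9 in newborn bladder (median 0.98), where Pparg was lower (-1.30). Their part was not tested. With only the 4 arrays compared, the kidney Igf1 call was lost (adjusted p = 0.068). Hair follicles in catagen, the regression phase, had more of probe 671661 than in anagen (1.97 and 2.09 against 0.70 and 0.75; anagen minus catagen -1.30 ± 0.23, adjusted p = 3.7e-05; 5.21% called, 2 of 5). Beside this, 4 of 5 macrophage genes were lower in anagen (median -1.04), and their part was not tested. Skin at postnatal days 2 to 3 had less of probe 671661 than at embryonic day 16 (-1.85 ± 0.23, adjusted p = 4.4e-09 by limma, 8.95% called, 2 of 5). Igf1 was the other member called in hair (anagen minus catagen -0.71 ± 0.20) and in skin (-0.69 ± 0.20). These Igf1 calls were lost in 4 and 5 of 11 alternatives. Brain at postnatal day 2 exceeded embryonic day 18.5 for Igf1 (0.92 ± 0.20, adjusted p = 0.00011), probe 523303 (1.43 ± 0.22) and probe 671661 (1.03 ± 0.23), where 38.5% of probes and 3 of 5 members were called. With the array series as a block, Igf1 (0.91, adjusted p = 0.052) and probe 671661 (0.77, adjusted p = 0.12) were no longer called. The P2 arrays are of the AC lot and the fetal ones of the AF lot, so among these arrays lot and stage coincide. With the lot as a block, which assumes the same lot effect in every source, these member calls were kept. Probe 418952 was then called as well (-1.03, adjusted p = 0.019 by limma). Beside this, 6 of 9 stromal genes were higher at P2 (median 1.11), and their part was not tested. Stimulated lymph node had less Igfbp1 than unstimulated (-2.44 ± 0.44, adjusted p = 5.8e-06; 40.8% called, 4 of 5), but the unstimulated arrays differed widely, and the difference ran from -3.35 to -1.53 when single arrays were left out. On the same unstimulated arrays, where Igfbp1 read 2.45 and 0.63, Fgb read 2.43 and 0.74, F2 2.66 and 0.89 and Bhmt 2.69 and 1.10, each higher on the first array. These are genes picked for their likeness to Igfbp1 over sources that include this one, and of the others so picked Ambp read 2.09 and 0.39 and Pzp 1.14 and -0.73. The remaining hepatocyte genes were not high: Apoc3 read -1.2 and -2.5, Trf -0.64 and -1.36 and Serpinc1 0.09 and 0.19. The part of liver RNA in these values was not tested. Igf1 was also lower in stimulated lymph node (-0.79 ± 0.20, adjusted p = 0.00063 by limma), a call lost in 2 of 11 alternatives.

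**Figure D5:**
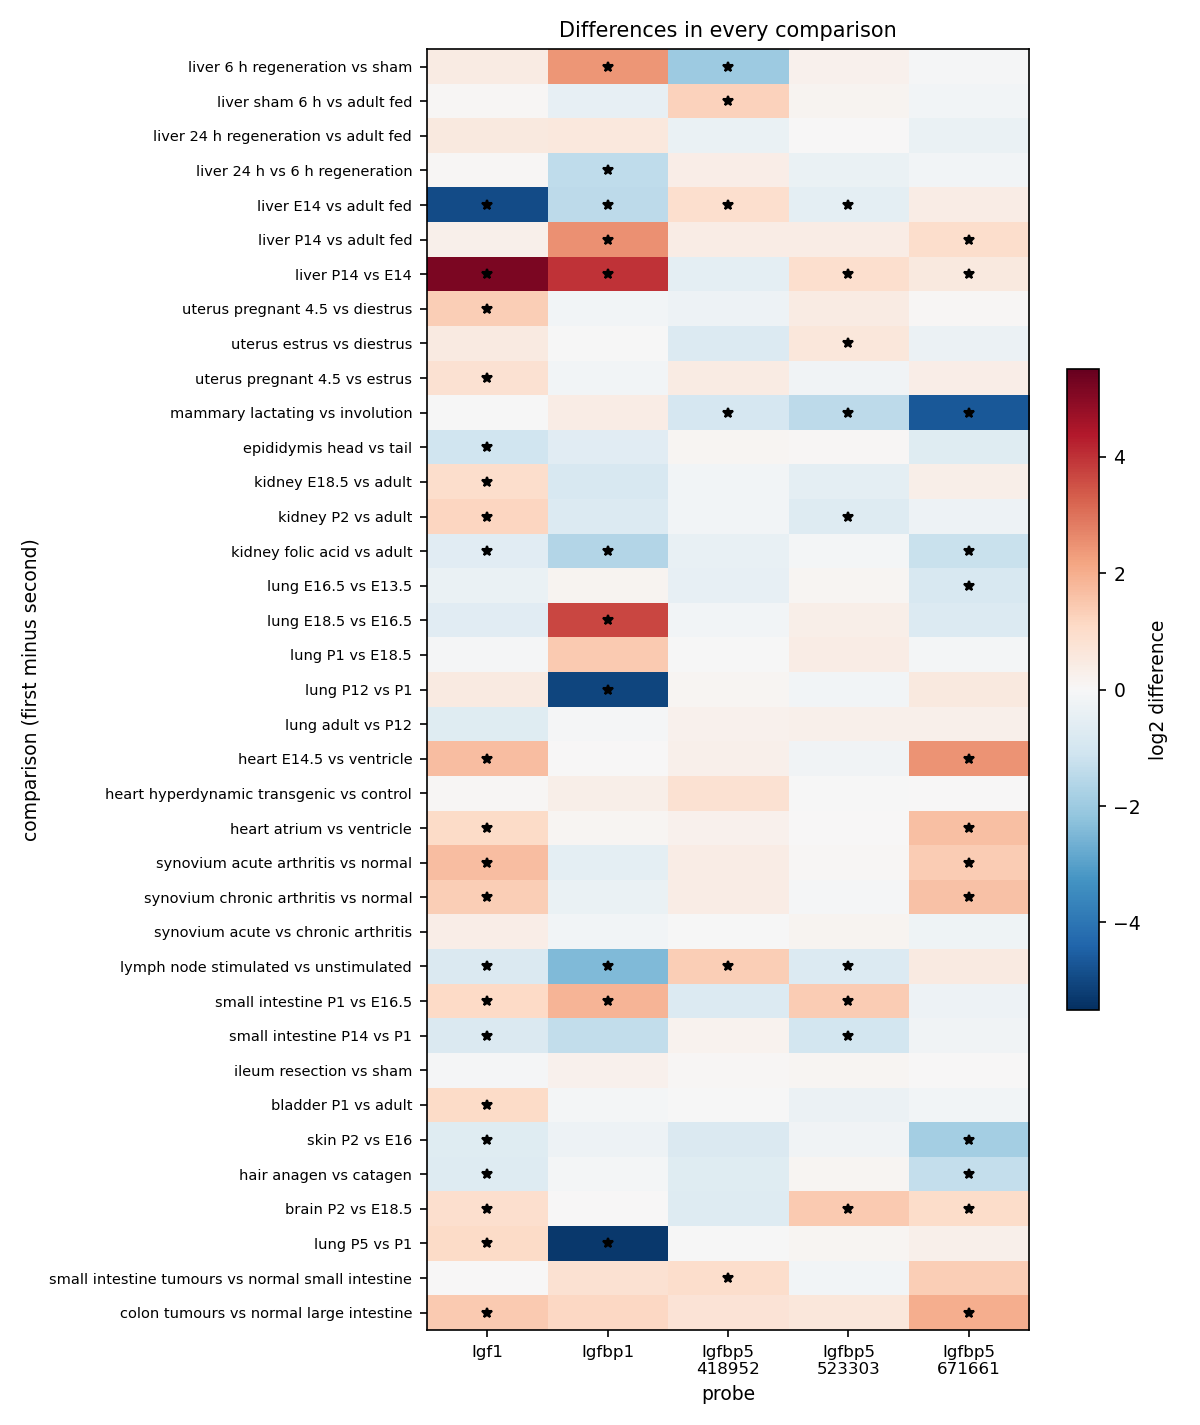
Log2 difference of the first minus the second source, by colour, for the 5 probes in 37 comparisons, with a star where the adjusted p was below 0.05. Igf1 has 21 stars, Igfbp1 has 11 and the Igfbp5 probes 6, 9 and 13, and the deepest colours are Igf1 in fetal liver, Igfbp1 in perinatal lung and Igfbp5 probe 671661 in mammary gland. Between 0.139% and 61.9% of all tested probes were called in these comparisons.

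Over all 37 comparisons, 60 of 185 member tests were called. The share of all tested probes that was called ran from 0.139% to 61.9% between these comparisons and is given with each above. The pooled count was not set against a pooled share of all probes. Whether it is particular to the members was not tested. For Igf1 14 were higher and 7 lower in the source named first, and for Igfbp1 5 were higher and 6 lower. For Igfbp5 the split was 4 and 2, 4 and 5, and 8 and 5 for probes 418952, 523303 and 671661. Of the 60, 22 were called in every alternative run for them: 8 for Igf1, 4 for Igfbp1, 2 for probe 523303 and 8 for probe 671661, and 0 of the 6 for probe 418952.

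The genes with the most similar pattern to each member over the 88 source means were mostly liver genes for Igfbp1. Among 5699 genes these were F2 (Pearson's r 0.94), Fgb (0.93), Pzp (0.92), Ambp (0.91) and Bhmt (0.91), and without the 6 livers, over 82 sources, r was 0.81, 0.83, 0.72, 0.70 and 0.71. For Igf1 they were Lsm6 (0.815), Hsd3b7 (0.79), Cfb (0.74), Urah (0.72) and Lgals9 (0.72), and without liver r lay between 0.48 and 0.65. For Igfbp5 probe 418952 they were Cep170b (0.87), Cd47 (0.80), Twist1 (0.77), Ryr1 (0.76) and Dcbld2 (0.76). Probe 671661, looked at after these values were seen, shared Cep170b as the first (0.94), followed by Col5a2 (0.68), and probe 523303 had Hook3 (0.71) and Aplp2 (0.70). Between members, Igf1 and Igfbp1 had r = 0.564 over 88 sources and 0.0929 over the 82 outside liver. Points of these correlations share the reference RNA and the platform, and sources share organs.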

How the data were processed

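The data are log2 ratios of a mouse tissue RNA to a universal mouse reference RNA, deposited by the authors for 88 sources and 8734 probes. Of image analysis, dyes and normalization nothing is given in the sources used here. Deposited values were centred per probe (8709 probes had a median within 0.001 of 0), and array medians ran from -0.919 to 0.236, so each array was also centred on its own median. Each array gave 5137 to 8658 values, and 2 arrays per source limit the precision. The platform annotation gave 1 symbol for 7540 probes, several for 14 and none for 1180, and symbols were brought up to GRCm38.p6 through gene identifiers. Promoter sequences are from RefSeq.

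Pairs of sources were compared with limma 3.58.1 in R 4.3.3, fitted on all arrays with 1 mean per source and the spread shared, over probes with values on at least 80% of arrays. Tumours were compared over source means with the title form as a covariate. Benjamini-Hochberg adjustment ran over every probe tested, and an adjusted p below 0.05 was a call. The steps were tested on simulated data. Array titles hold a code with the letters AC (69 arrays) or AF (86), or have a # form (16), in 13 series. Lot and series are names given here to parts of these codes, and the labels do not say what the codes stand for.

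Members, comparisons and gene lists were chosen with earlier results of these data known. Named were all 5 member probes, the 5 genes most correlated with each member (for Igfbp5 by its probe with the lowest number) and up to 4 listed pathway genes per comparison with the largest called change; marker genes named beside them, and F2, were chosen after their values were seen. Lists are described by counts and medians, with no set test. The epididymis and milk lists have no gene with a probe. Alternatives were the values as deposited, quantile normalization, array lot or array series as a block, 1 lot or 1 title form alone, only the arrays compared, other probe filters, and leaving out each array or source. Plots were drawn with matplotlib 3.10.9, and tables were made with pandas 2.3.3 and numpy 2.4.6 under Python 3.11.15.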

Additional observations from a re-analysis of the deposited data

Results flagged for a closer look

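The fetal minus adult difference of Igf1 in liver ran against that in kidney, heart and lung. Liver minus kidney was -5.87, liver minus heart -6.63 and liver minus lung -6.14, each from the test of the difference itself in limma. For the heart, Igfbp1 (-1.46, adjusted p = 0.048) and Igfbp5 probe 671661 (-2.07, adjusted p = 1.7e-07) differed as well. Stage and gestational age are not matched between these organs, and the fetal liver is labelled as hematopoietic tissue.

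Among 10 small intestine tumours, Jej2 stood apart for Igfbp5 probe 418952 at 0.40, with a gap to its neighbour of 0.515 of the whole range. Chance alone sets about 1 group in 20 apart in this way. All 5 probes were examined so in the small intestine and in the colon tumours, and no other source stood apart. The cause was not tested.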

How the results depend on the processing

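No paired analysis was possible because, outside the tumours, the labels give the arrays of a source no number that links them to arrays of another source. The number in tumour names as a random block changed none of the 5 member calls in small intestine tumours. Of the 60 member calls 22 were made in every alternative. Directions turned for Igfbp1 in fetal against adult liver with quantile normalization (0.43) and for probe 671661 in juvenile against fetal liver as deposited (-0.10). As deposited, without centring of the arrays, the median of all probes in that last comparison was -0.44 rather than 0.22, in fetal against adult liver 0.19 rather than -0.21 and in lactation against involution -0.23 rather than 0.09, so small differences there are relative to it.

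The calls named next are those of the 12 liver, uterus, mammary gland and epididymis comparisons. In the other comparisons 3 more were lost with quantile normalization, 2 as deposited, 16 with only the arrays compared and 8 with array series as a block. Calls lost with quantile normalization were, at 6 h of regeneration against sham, Igfbp1 (0.87) and probe 418952 (-1.28), and probe 418952 in sham against fed adults (0.91), Igfbp1 at 24 h against 6 h (-0.54), probes 418952 (0.72) and 523303 (-0.40) in fetal against adult liver, and Igfbp1 (1.12) and probe 671661 (0.39) in juvenile against fetal liver. As deposited, calls were lost for Igfbp1 at 24 h against 6 h (-1.23), probe 523303 in fetal against adult (-0.13) and juvenile against fetal liver (0.28) and in estrus against diestrus (0.43). With only the arrays compared, values stayed but calls were lost for Igfbp1 (2.44) and probe 418952 (-1.99) at 6 h against sham and Igfbp1 at 24 h against 6 h (-1.41), which was also lost within the AC (-1.58) and AF (-1.24) lots, 1 array a side. With array series as a block, calls were lost for probe 418952 in sham (1.59) and probe 523303 in fetal liver (-0.51).

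Leaving out single arrays, some calls were lost: probe 418952 ranged from -3.47 to -0.52 at 6 h against sham, 0.95 to 1.61 in sham, 0.61 to 1.28 in fetal against adult liver and -0.95 to -0.87 in mammary gland. Igfbp1 ranged from -1.53 to -1.29 at 24 h against 6 h, probe 523303 from -0.56 to -0.50 in fetal liver and 0.50 to 0.74 in estrus, probe 671661 from 0.51 to 0.59 in juvenile against fetal liver, and Igf1 from 0.85 to 0.87 in pregnancy against estrus. Apart from the probe 418952 result at 6 h, the cause was not tested. Where an arm had 1 array, it was assumed to vary like the other sources.

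Counts of probes called moved by over 1.5 times in most comparisons: at 6 h of regeneration against sham 471 became 19 with quantile normalization, 874 within the AF lot and 0 by limma with only the 4 arrays compared, where 1359 had an unadjusted p below 0.05. For juvenile against adult liver 2583 became 682 with quantile normalization, and for mammary gland 4774 became 1598.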
